A study of Mus musculus with 4 samples.

Results

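The TGF-beta, BMP and SMAD genes are 35 genes of 1 signalling system, taken as a fixed list of 9 ligands, 3 latent TGF-beta binding proteins, 6 type I receptors, 4 type II receptors, 1 co-receptor, 5 receptor-regulated SMADs, the common SMAD, 2 inhibitory SMADs, 2 ubiquitin ligases and 2 corepressors. All 35 were found among the 49939 genes of the RefSeq table for GRCm38. A cytosine counted towards a gene when it fell between the gene's ends or no more than 2000 bp past them. This gave 89 of the 53206 positions listed for 5-methylcytosine (5mC) and 139 of the 71864 listed for 5-hydroxymethylcytosine (5hmC). Of these, 82 and 117 are more than 2000 bp from any other gene of that table.

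The cells were LSK cells, the Lin-, Sca-1-high, c-Kit+ fraction of mouse bone marrow that contains haematopoietic stem and progenitor cells. Libraries came from HDAC6 knockout mice (KO) and from wild-type controls (WT), 1 whole-genome bisulfite and 1 oxidative bisulfite library per genotype, 4 in all. Bisulfite sequencing reads 5mC and 5hmC alike, and the oxidative form reads 5mC alone. The labels nevertheless title the bisulfite libraries, numbered 1 in both genotypes, as 5mC and the oxidative ones, numbered 2, as 5hmC. How the deposited levels were derived from them is not stated, so a level called 5mC or 5hmC below is what the authors' table calls it. The sources used here do not give the allele, strain, age or sex of the mice, or whether animals were pooled. With 1 library of a kind per genotype, no value below has a replicate, an SD or a test over animals.

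Ligands of the TGF-beta superfamily bind a type II receptor kinase, which activates a type I receptor kinase. TGF-beta and activin receptors then phosphorylate SMAD2 and SMAD3, and BMP receptors SMAD1, SMAD5 and SMAD9. These join SMAD4 and enter the nucleus, while SMAD6 and SMAD7 inhibit the pathway. In bone marrow, TGF-beta is known for holding haematopoietic stem cells in quiescence. 5mC is the stable methyl mark of CpG sites, and 5hmC is made from it by the TET enzymes.

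All listed levels are the authors' own values, given per CpG as a fraction of reads and printed here as percent. A listed site is by construction one that differed. In the authors' deposited table the largest p at these genes was 0.00994 for 5mC and 0.00981 for 5hmC, and no difference was smaller than 14.8 percentage points for 5mC or 13.6 for 5hmC. Read depth is unknown, so a level of 0% or 100% has no interval. The tables hold no levels of CpGs that are not listed, so the LSK label could not be set against marker genes. Nor do the marks check the genotype, since the deleted part of Hdac6 is not stated.

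Promoters could be examined for part of the family. RefSeq promoter windows, from 250 bp before to 50 bp after a transcription start, were at hand for 26 of the 35 genes, 36 windows in all, with 2 to 54 CpGs each. Of their 837 CpGs, 1 was listed for 5mC and 0 for 5hmC, against 0.114% and 0.215% of the CpGs in all RefSeq windows. By window, 1 of 36 held a listed site, against 1.21% of all windows for 5mC and 2.23% for 5hmC. The share of CpGs listed for 5mC is thus near that over all windows. How many of these CpGs were covered and tested is unknown, and the promoters of the other 9 genes were not examined.

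That site lies in Ltbp1, which encodes a protein that binds latent TGF-beta in the extracellular matrix and is known to be transcribed from separate starts into a long and a short form. The windows of its starts, 173.3 kb apart, are shown because 1 of them holds the only listed site in the 36 windows examined. Both are from RefSeq on GRCm38, plus strand, chr17:75005279-75005578 with 17 CpGs for the upstream start and chr17:75178531-75178830 with 7 CpGs for the downstream start. Capitals mark the listed CpG, whose cytosine is base 208 of the second window, position 75178738, 43 bp before the start.
Ltbp1 upstream start: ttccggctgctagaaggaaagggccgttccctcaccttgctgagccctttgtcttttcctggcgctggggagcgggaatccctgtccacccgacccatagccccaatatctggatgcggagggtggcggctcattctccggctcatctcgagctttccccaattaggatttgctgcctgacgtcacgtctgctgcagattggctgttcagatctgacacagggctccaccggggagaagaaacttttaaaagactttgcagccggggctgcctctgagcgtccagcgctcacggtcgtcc
Ltbp1 downstream start: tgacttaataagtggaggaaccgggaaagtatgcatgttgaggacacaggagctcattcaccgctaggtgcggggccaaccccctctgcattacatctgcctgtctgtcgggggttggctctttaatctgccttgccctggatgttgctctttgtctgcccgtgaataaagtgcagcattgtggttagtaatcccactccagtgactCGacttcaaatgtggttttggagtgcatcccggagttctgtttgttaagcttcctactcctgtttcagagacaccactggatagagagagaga
The 5mC level of this CpG was 36.4% in KO and 0% in WT cells, and the authors' deposited table gave it p = 0.00361 and q = 1. None of the 17 CpGs of the upstream window was listed for either mark.

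Across the family both marks differed in both directions. For 5mC, 38 of 89 sites were higher in KO cells (42.7%, exact binomial 95% interval 32.3 to 53.6%, counting error only), and over all listed sites the share was 40.3%. For 5hmC, 83 of 139 sites were higher (59.7%, interval 51.1 to 67.9%), against 64.4% of all listed sites. The median difference was -23.53 points for 5mC and 23.08 points for 5hmC at these genes, and -23.26 and 22.22 points over all listed sites. Both intervals contain the share over all listed sites. They treat sites as independent, although some are close neighbours in the same gene, so they may be too narrow and are not a test.

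Large differences were about as frequent as elsewhere. A difference of 50 points or more stood at 22 of 89 5mC sites, against 25.4% of all listed 5mC sites, and at 14 of 139 5hmC sites, against 13.7%. The highest 5mC difference was 77.5 points, at Tgfb2, and the lowest -72.86 points, at Bmpr2; for 5hmC these were 81.8 points, at Tgfbr2, and -63.1 points, at Tgfbr3. In the authors' deposited table no site of these genes had q under 0.05, where 0.175% of all 5mC and 1.08% of all 5hmC sites did. The smallest q there were 0.539 for 5mC, at Bmp6, and 0.0811 for 5hmC, at Ltbp3, and q equalled 1 at 88 of 89 and 122 of 139 sites, against 98.9% and 86.6% of all listed sites.

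By gene, 28 of 35 held a listed 5mC site and 29 of 35 a listed 5hmC site, 25 held both, and Inhba, Tgfbr1 and Skil held neither. Over all protein-coding genes the shares were 47.1% for 5mC and 53.7% for 5hmC, but the 35 genes are longer, with a median of 69.0 kb against 17.2 kb. In their middle length range of 27.6 to 92.8 kb, 14 of 17 had 5mC sites and 15 of 17 had 5hmC sites, against 61.6% and 67% of all protein-coding genes of that length. Per 100 kb of gene and flank there were 3.02 listed 5mC and 4.72 listed 5hmC sites at these genes, against 2.33 and 3.47 over all protein-coding genes. Differences in CpG density were not taken into account. In the 28 genes with 5mC sites, KO cells had the higher level throughout in 3, the lower level throughout in 10, and a mixture in 15. For 5hmC the 29 genes divided into 5, 4 and 20. These divisions were not computed over all genes, so they are not read as a trait of the family. Over all listed sites, 40.3% of 5mC and 64.4% of 5hmC sites were higher in KO cells.

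**Figure D1:**
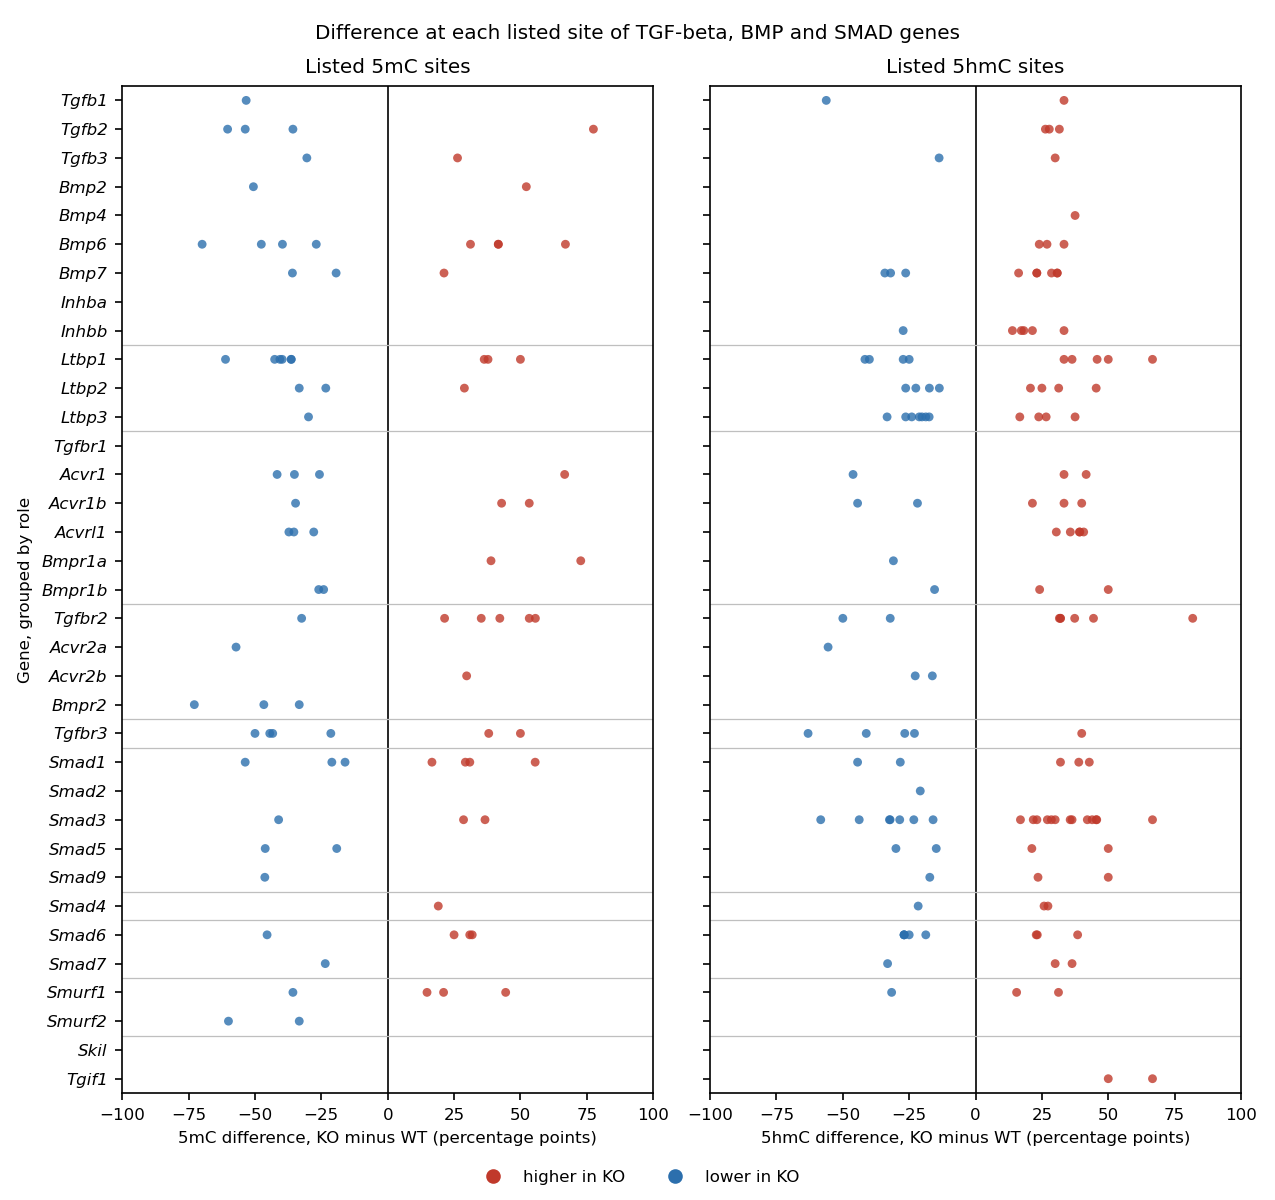
Difference in level, KO minus WT in percentage points, at each of the 89 listed 5mC sites (left) and 139 listed 5hmC sites (right), 1 point per CpG, with genes in rows grouped by role. Points right of 0 are higher in KO, 38 for 5mC and 83 for 5hmC; Inhba, Tgfbr1 and Skil have no point.

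At CpGs listed for both marks, 5mC and 5hmC differed in opposite directions without exception. There were 32 such positions in 19 of the genes, which is 36.0% of the family's 5mC sites and 23.0% of its 5hmC sites, against 23.7% and 17.5% over all listed sites. At 22 positions 5mC was lower and 5hmC higher in KO cells, and at 10 the reverse held. Opposite differences are the rule in these tables, at 99.9% of all 12608 shared positions, of which 71.6% of the opposite ones had 5mC lower.

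The summed level of both marks ranged from 43.5 to 103.85% in KO and from 46.2 to 100.5% in WT cells, and differed by at most 10 points between genotypes at 27 of the 32 positions, as at 84.1% of all shared positions. The median absolute difference of the sum was 3.92 points, while those of 5mC and 5hmC alone were 36.1 and 34.8 points. Over all shared positions these medians were close to that, at 3.83, 38.46 and 35.71 points. At 3 of the 32 positions the authors' deposited table gave the same p for both marks within 1e-09, as at 944 of all 12608 shared positions. These 3 lie in Bmp6, Ltbp1 and Acvr1, and there the levels of both marks summed to 100% in KO and in WT cells. Whether the levels of both marks at a shared CpG are independent measurements is not stated in the sources used here, and they are not counted as such. Away from shared positions, 28 of 57 5mC sites (49.1%) and 61 of 107 5hmC sites (57.0%) were higher in KO cells, against 44% and 62.8% of all such sites.

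**Figure D2:**
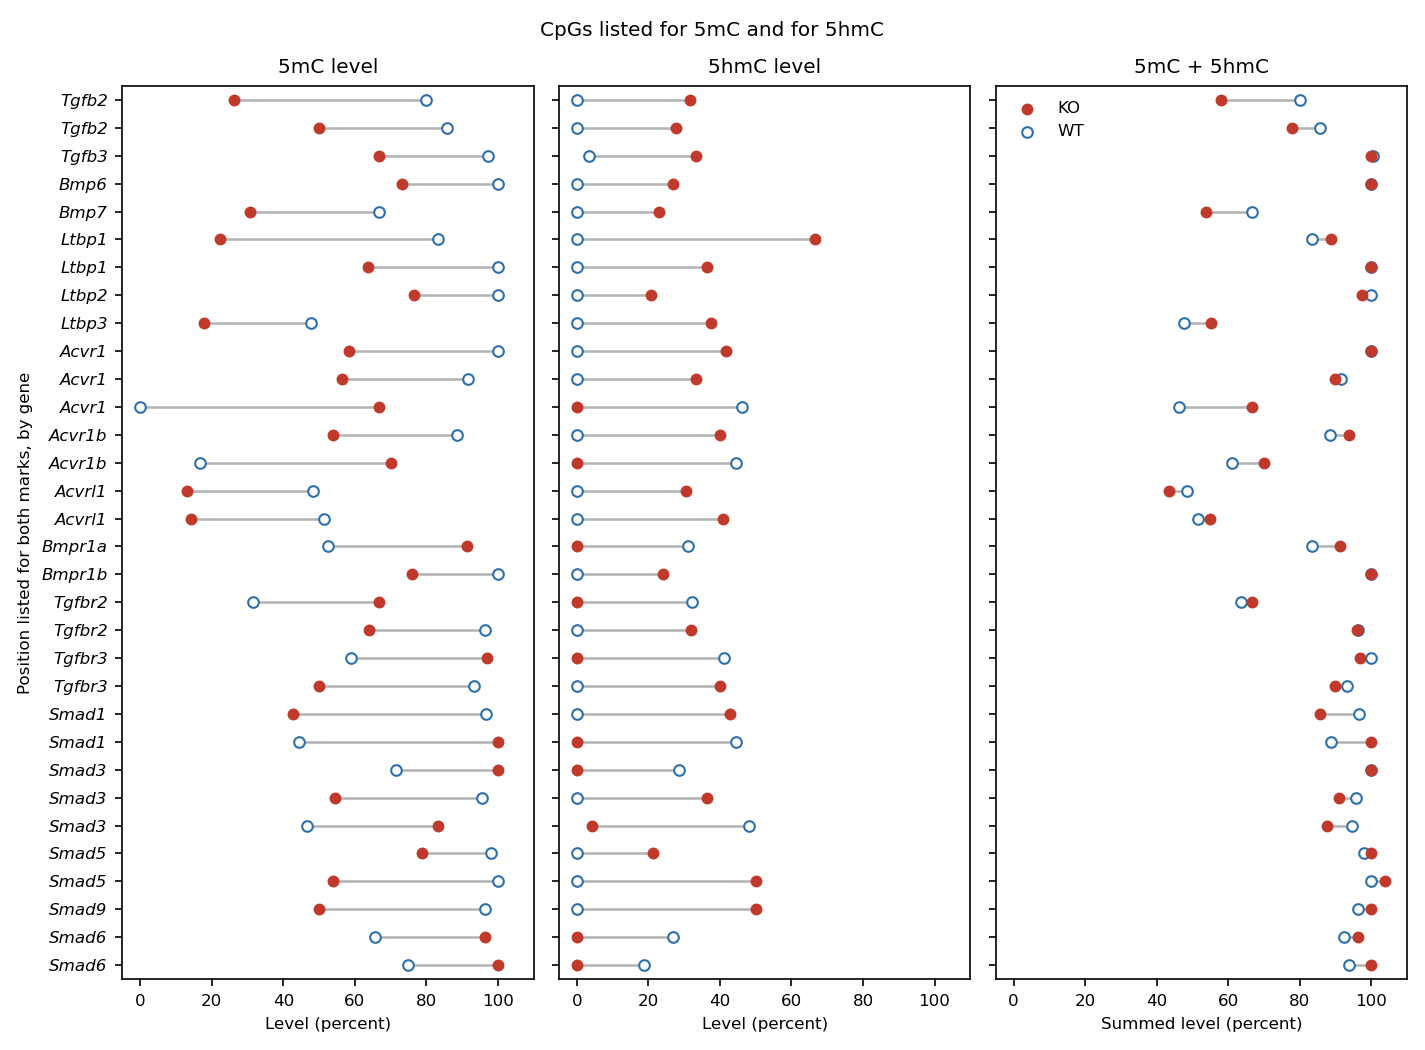
Levels in percent at the 32 CpGs listed for both marks, 1 row per CpG labelled by its gene, for 5mC (left), 5hmC (middle) and their sum (right). Filled points are KO and open points WT. In each row the marks differ in opposite directions, and the sums lie within 10 points of each other at 27 of 32 CpGs. Differences of the sum, KO minus WT, ran from -22.1 to 20.52 points.

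Among the 9 ligands, 5hmC was higher in KO cells at 20 of 26 sites in 7 genes, against 64.4% of all listed 5hmC sites, and 5mC at 8 of 20 sites in 6 genes, against 40.3%. Bmp7 held 6 and Inhbb 5 of those 20 higher 5hmC sites. Tgfb1 on chromosome 7, the main TGF-beta of blood cells, held a 5mC site at position 25704958 with 46.7% in KO and 100% in WT. Its 5hmC was 0% in KO and 56.25% in WT at 25691723, but 33.3% in KO and 0% in WT at 25706011, 934 bp beyond the gene.

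Tgfb2 on chromosome 1 had the family's highest 5mC difference, 87.5% in KO and 10% in WT at position 186708948. Its other 3 5mC sites were lower in KO cells, the lowest with 28.6% in KO and 88.9% in WT at 186657998. At 186652610 and 186655066 5mC was 26.3% and 50% in KO, against 80% and 85.7% in WT, and 5hmC was 31.6% and 27.8% in KO, against 0% at both in WT. A further 5hmC site, 186702636, had 26.3% in KO and 0% in WT. All 3 of its 5hmC sites were thus higher in KO cells.

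Tgfb3, on chromosome 12, held neighbouring 5mC sites of opposite direction, 91.3% in KO and 65% in WT at position 86078101 but 66.7% in KO and 97.1% in WT at 86078336. At 86078336 the CpG had 33.3% 5hmC in KO and 3.33% in WT. At 86076357 5hmC was 1.49% in KO and 15.2% in WT.

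Bmp6 on chromosome 13, a BMP that in liver controls the iron hormone hepcidin, held the most 5mC sites of the ligands, 4 higher and 4 lower in KO cells. The highest and the lowest lie next to each other near the gene's lower end. Position 38347754 had 94.7% in KO and 27.8% in WT (p = 2.91e-05, q = 0.539 in the authors' deposited table), and position 38348507 had 14.3% in KO and 84.2% in WT. Its 3 5hmC sites, 38399029, 38435040 and 38483165, had 26.9%, 33.3% and 24% in KO and 0% in WT. At the first of these 5mC was 73.1% in KO and 100% in WT.

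Bmp7 on chromosome 2 held 3 5mC and 9 5hmC sites. Its 5mC was 100% in KO and 78.8% in WT at position 172867303, 80.6% in KO and 100% in WT at 172888961, and 30.8% in KO and 66.7% in WT at 172914456, where 5hmC was 23.1% in KO and 0% in WT. Of the 5hmC sites 6 were higher in KO cells, the highest, a tie, with 30.8% in KO and 0% in WT at both 172866424 and 172935596, and 3 were lower, the lowest with 3.33% in KO and 37.5% in WT at 172925296.

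Inhbb on chromosome 1, the gene of the activin B subunit, had no 5mC site but 6 5hmC sites around its 6.8 kb, 5.56 per 10 kb of gene and flank, the highest 5hmC density of the family. At 5 of them 5hmC was higher in KO cells, the highest with 33.3% in KO and 0% in WT at position 119418760, and at 119416477 it was 0% in KO and 27.3% in WT. Bmp4 on chromosome 14 held 1 5hmC site, 37.5% in KO and 0% in WT, 1156 bp before its start. Bmp2, also a BMP ligand gene and on chromosome 2, held only 5mC sites, with 23.1% in KO and 73.7% in WT at 133551090 and 72.2% in KO and 20% in WT at 133553484. Inhba, which encodes the activin A subunit, had no listed site.

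The latent TGF-beta binding proteins tether inactive TGF-beta in the matrix. They held 13 5mC sites, 4 of them higher in KO cells, and 28 5hmC sites, 13 of them higher. Over all listed sites the shares were 40.3% for 5mC and 64.4% for 5hmC. Besides its promoter site, Ltbp1 (chromosome 17, 387.0 kb) had 8 5mC sites, 6 of them lower. The highest difference was at position 75113277, with 100% in KO and 50% in WT, and the lowest at 75123163, with 22.2% in KO and 83.3% in WT. That CpG also had the gene's highest 5hmC difference, 66.7% in KO and 0% in WT (q = 0.65 in the authors' deposited table). At 75201945 5mC was 63.6% in KO and 100% in WT, and 5hmC 36.4% in KO and 0% in WT, so that the sum was 100% in both genotypes. The lowest of its 4 lower 5hmC sites had 0% in KO and 41.7% in WT, at 75187270.

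Ltbp2 on chromosome 12 held 8 5hmC sites, 4 in each direction, from 45.45% in KO and 0% in WT at position 84861201 to 0% in KO and 26.3% in WT at 84814177. Of its 5mC sites, 84806497 and 84851267 had 66.7% and 76.7% in KO, against 100% at both in WT, while 84874856 had 85.7% in KO and 56.8% in WT. At 84851267 5hmC was 20.7% in KO and 0% in WT.

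Ltbp3 (chromosome 19, 5740900 to 5758536) held 11 5hmC sites in 17.6 kb and the run with the most sites, 4, of the family, counting as a run 3 or more sites each within 500 bp of the next. In a run of 4 CpGs over 29 bp, from 5757162 to 5757190, 5hmC lay between 0 and 2.04% in KO and between 19.4 and 33.3% in WT cells. The lowest difference among them was at 5757173, with 0% in KO and 33.3% in WT, for which the authors' deposited table gave p = 1.6e-05 and q = 0.1. A looser run from 5751267 to 5751758 was mixed, with 0%, 0% and 23.8% in KO at 5751267, 5751275 and 5751758, against 18.75%, 21.2% and 0% in WT.

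At the other end of Ltbp3, position 5742780 lies 1880 bp inside the gene, counted from its start, and is the site with the family's smallest 5hmC p. There 5hmC was 37.5% in KO and 0% in WT (p = 1.21e-05, q = 0.0811 in the authors' deposited table), and 5mC was 17.8% in KO and 47.6% in WT. KO cells had more 5hmC at 4 of the 11 CpGs and less at 7.

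The type I receptors held 14 5mC sites, 5 of them higher in KO cells, and 17 5hmC sites, 12 of them higher, against 40.3% and 64.4% of all listed sites. Acvrl1, the gene of the endothelial receptor kinase ALK1, was the only one of the 25 genes with sites for both marks in which every 5mC site was lower and every 5hmC site higher in KO cells. Bmpr1a and Acvr2b had the reverse, with every 5mC site higher and every 5hmC site lower. Of the 3 5mC sites of Acvrl1, 2 were shared positions, and opposite differences stood at 99.9% of all shared positions. How often other genes have such one-way patterns was not counted. Acvrl1 spans 101128522 to 101145336 on chromosome 15. Its 5mC was 9.09% in KO and 36.96% in WT at 101128253, 13.0% and 14.3% in KO at 101131799 and 101140049, against 48.4% and 51.5% in WT. Its 5hmC was 0% in WT at all 5 sites and between 30.4 and 40.7% in KO. Of these, 3 formed a run of 38 bp, with 40.7% at 101140049, 35.7% at 101140080 and 39.3% at 101140086 in KO (q = 0.191, 0.449 and 0.206 in the authors' deposited table). The last, 101146149, had 39.1% in KO and lies 813 bp beyond the gene.

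Acvr1b, the activin receptor kinase gene that follows Acvrl1 on chromosome 15, did not share that direction. Position 101180396 had 53.85% 5mC in KO and 88.6% in WT, with 40% 5hmC in KO and 0% in WT, but position 101190729 had 70% 5mC in KO and 16.7% in WT, with 0% 5hmC in KO and 44.4% in WT. The remaining 5mC site, 101191799, had 52% in KO and 9.09% in WT. Its 5 5hmC sites were split 3 to 2 between higher and lower in KO cells.

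Acvr1 on chromosome 2, a BMP type I receptor gene, showed both directions as well. At 58474199 and 58474328 5mC was 58.3% and 56.5% in KO, against 100% and 91.7% in WT, and 5hmC was 41.7% and 33.3% in KO, against 0% at both in WT. At 58544557 5mC was 66.7% in KO and 0% in WT, and 5hmC 0% in KO and 46.2% in WT. At the remaining 5mC site, 58485831, the level was 74.3% in KO and 100% in WT.

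Bmpr1a on chromosome 14, a BMP receptor gene of many tissues, had 5mC higher in KO cells at both of its sites, with 91.3% and 100% in KO at 34435978 and 34486298, against 52.4% and 27.3% in WT. At 34435978 5hmC was 0% in KO and 30.95% in WT. Its relative Bmpr1b on chromosome 3 had the other direction for 5mC, while its 5hmC was mixed. There 5mC was 75.9% and 68.75% in KO at 142104066 and 142138596, against 100% and 94.7% in WT. The first of these had 24.1% 5hmC in KO and 0% in WT, 142164473 had 50% in KO and 0% in WT, and 142003150 had 2.04% in KO and 17.5% in WT. Tgfbr1, which encodes the type I receptor of TGF-beta itself, had no listed site.

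Its partner Tgfbr2, the type II receptor gene of TGF-beta, had sites in both tables (chromosome 9, 116087695 to 116175363). Of its 6 5mC sites 5 were higher in KO cells. Neighbouring CpGs at 116148130 and 116148146 had 84.2% and 93.3% in KO, against 28.6% and 40% in WT. At 116146655 5mC was 66.7% in KO and 31.4% in WT while 5hmC was 0% in KO and 32.1% in WT, and at 116159013 the marks took the other direction, with 64% 5mC in KO and 96.4% in WT and 32% 5hmC in KO and 0% in WT. A non-coding gene, Gm31292, lies within 2000 bp of the first 3 of these positions.

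Of the 8 5hmC sites of Tgfbr2, 6 were higher in KO cells. At position 116121690 5hmC was 100% in KO and 18.2% in WT, the highest difference of the family, and at the nearby 116122262 it was 0% in KO and 50% in WT. The deposited p of the first was 0.00481 and its q 1 in the authors' deposited table. The site closest to the start, 744 bp before it and also within 2000 bp of the gene Gm40582, had 44.4% in KO and 0% in WT.

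Fewer sites stood at the other type II receptor genes. Bmpr2 on chromosome 1, the BMP receptor gene mutated in human pulmonary arterial hypertension, had 3 5mC sites, all lower in KO cells, with 40%, 20% and 66.7% in KO at 59803996, 59866030 and 59872194, against 86.7%, 92.9% and 100% in WT. Acvr2a on chromosome 2 had 42.9% 5mC in KO and 100% in WT at 48849006, and 0% 5hmC in KO and 55.6% in WT at 48816103. Acvr2b on chromosome 9 had 87.8% 5mC in KO and 58.1% in WT at 119418362. At 119418197 and 119420100 its 5hmC was 0% in KO, against 22.7% and 16.3% in WT.

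Tgfbr3, on chromosome 5, encodes betaglycan, a co-receptor that presents TGF-beta2 to TGFBR2. Its 5hmC was lower in KO cells at 4 of 5 sites, the lowest with 8.33% in KO and 71.4% in WT at position 107201744. Of its 6 5mC sites 4 were lower; the highest difference, at 107110836, was 50% in KO and 0% in WT, and the lowest, at 107167294, 50% in KO and 100% in WT. The CpG at 107202556 had 96.9% 5mC in KO and 58.8% in WT, with 0% 5hmC in KO and 41.2% in WT, and 107234329 had 50% 5mC in KO and 93.3% in WT, with 40% 5hmC in KO and 0% in WT.

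Smad3 held 20 of the family's 139 5hmC sites, the most of any member, in 111.2 kb of chromosome 9 (63646766 to 63757994). SMAD3 carries the TGF-beta and activin signal. In KO cells 13 of the 20 were higher and 7 lower. The highest difference was 66.7% in KO and 0% in WT at position 63751644, and the lowest 0% in KO and 58.3% in WT at 63753801, close by. A run of 3 CpGs over 450 bp had one direction, with 28.6%, 50% and 52.6% in KO at 63702819, 63703064 and 63703268, against 0%, 4.35% and 8.7% in WT. A second run over 456 bp was mixed, with 25.8%, 0% and 36.4% in KO at 63739311, 63739411 and 63739766, against 2.7%, 23.3% and 0% in WT. That run lies within 2000 bp of the non-coding gene Gm51710.

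The 3 5mC sites of Smad3 were all shared with the 5hmC table. At 63734227 5mC was 100% in KO and 71.4% in WT, and 5hmC 0% in KO and 28.6% in WT. At 63739766 5mC was 54.55% in KO and 95.65% in WT. The CpG at 63759874 lies 1880 bp before the start and just inside the 2000 bp limit, and had 83.3% 5mC in KO and 46.7% in WT, with 4.17% 5hmC in KO and 48% in WT. Just outside that limit, the nearest listed sites of the family were a 5mC site 2010 bp beyond Smad6, with 83.3% in KO and 100% in WT, and a 5hmC site 2302 bp beyond Bmp7, with 0% in KO and 36.7% in WT.

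**Figure D3:**
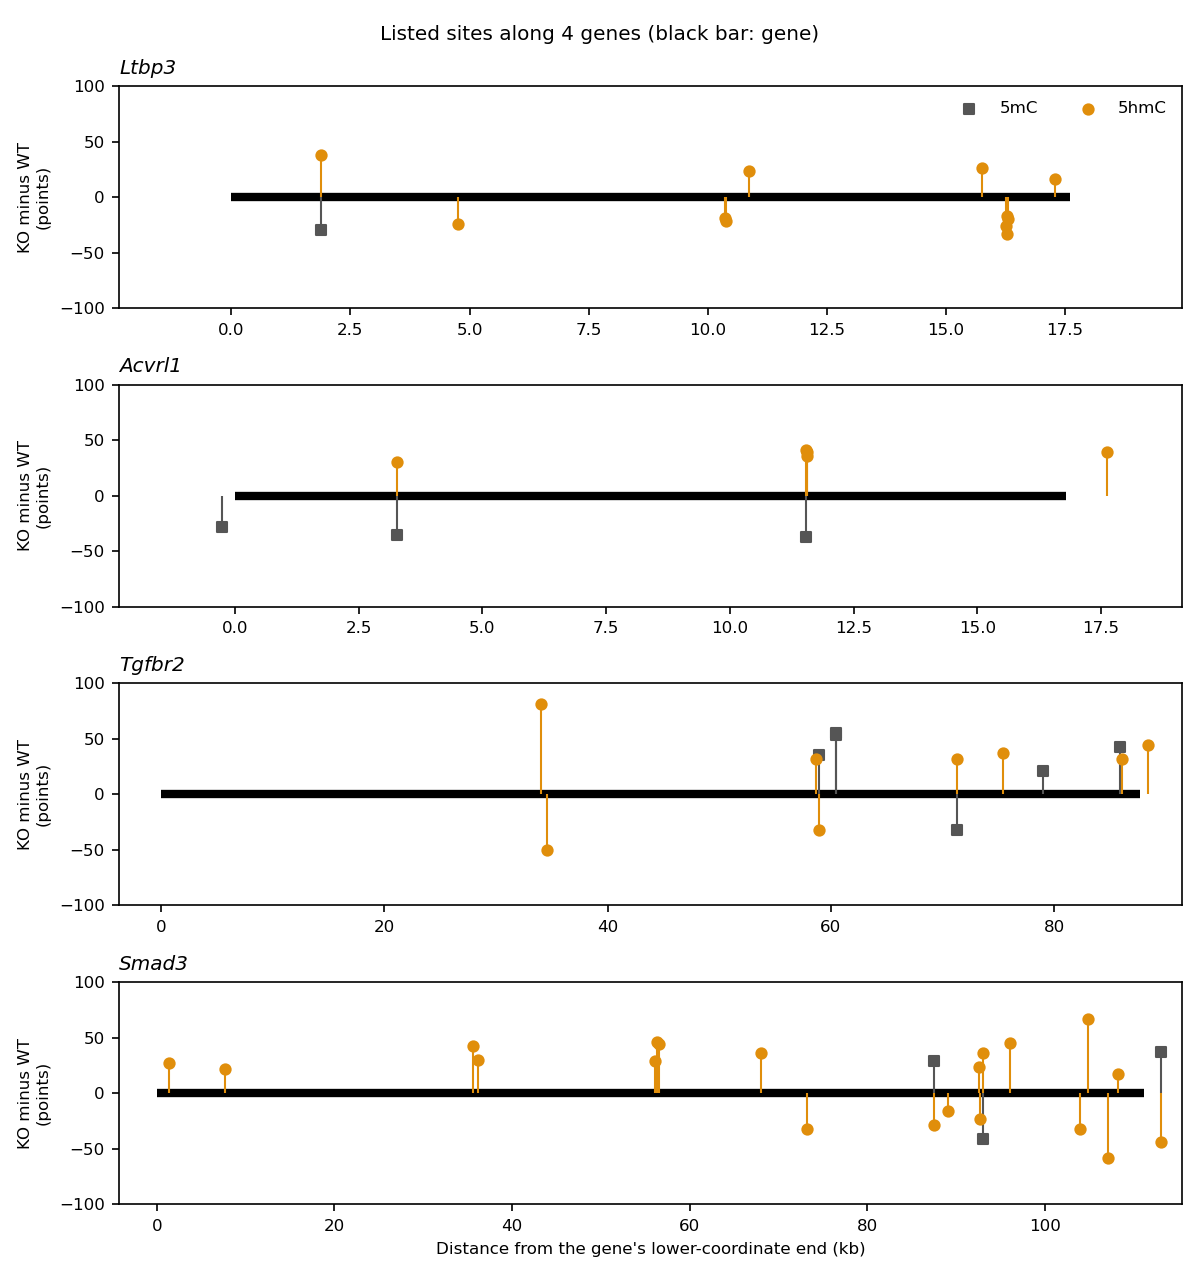
Listed sites along Ltbp3, Acvrl1, Tgfbr2 and Smad3, by distance in kb from the gene's lower-coordinate end (black bar, gene), with the difference KO minus WT in percentage points for 5mC (squares) and 5hmC (circles). Acvrl1 has 5mC below and 5hmC above 0 at every site, while the other 3 genes have 5hmC sites on both sides of 0.

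SMADs of the BMP branch are Smad1, Smad5 and Smad9. Smad1 on chromosome 8 held 7 5mC sites, 4 higher and 3 lower in KO cells, and 5 5hmC sites, 3 higher and 2 lower. At position 79372856 5mC was 100% in KO and 44.4% in WT, and 5hmC 0% in KO and 44.4% in WT; at 79358548 5mC was 42.9% in KO and 96.55% in WT, and 5hmC 42.9% in KO and 0% in WT. Smad5 on chromosome 13 had 78.8% and 53.85% 5mC in KO at 56719651 and 56724201, against 98% and 100% in WT, where 5hmC was 21.2% and 50% in KO and 0% in WT. Its other 5hmC sites, 56705340 and 56718935, had 0% in KO, against 30% and 14.8% in WT. Smad9 on chromosome 3 had 50% 5mC in KO and 96.3% in WT at 54773391, where 5hmC was 50% in KO and 0% in WT (p = 7.76e-05, q = 0.305 for 5hmC in the authors' deposited table). At 54797323 and 54797582 its 5hmC was 23.5% and 0% in KO, against 0% and 17.2% in WT.

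Smad2, Smad4 and Smad7 all lie on chromosome 18 and held few sites. Smad2, the partner of SMAD3 in the TGF-beta branch, had 1 5hmC site, with 0% in KO and 20.8% in WT at position 76283418. Smad4, the common SMAD, had 100% 5mC in KO and 80.95% in WT at 73691213. A run of 3 5hmC sites near it, at 73690476, 73690934 and 73691000, had 0%, 27.3% and 25.8% in KO, against 21.6%, 0% and 0% in WT.

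The inhibitory SMAD genes Smad6 and Smad7 held 5 5mC and 11 5hmC sites. Smad6 on chromosome 9 had 3 5mC sites higher in KO cells and 1 lower, with 35.3% in KO and 3.45% in WT at position 63960425, and 50% in KO and 95.45% in WT at 64016212. At 63988231 and 64005188 5mC was 96.4% and 100% in KO, against 65.5% and 75% in WT, and 5hmC was 0% at both in KO, against 26.9% and 18.75% in WT. Of its 8 5hmC sites 5 were lower, among them 63952069 with 0% in KO and 26.9% in WT, and the highest difference was 38.5% in KO and 0% in WT at 63959349. Smad7 had 76.5% 5mC in KO and 100% in WT at 75373772. Its 5hmC was 3.7% in KO and 36.8% in WT at 75377127, and 36.4% and 30% in KO at 75385740 and 75386451, against 0% in WT.

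Smurf1 and Smurf2 encode ubiquitin ligases that mark SMADs and receptors for degradation. Smurf1 on chromosome 5 had 3 5mC sites higher and 1 lower in KO cells, from 50% in KO and 5.56% in WT at position 144878833 to 64.3% in KO and 100% in WT at 144930049. Its 5hmC was 31.25%, 5.88% and 18.6% in KO at 144953830, 144963800 and 144964287, against 0%, 37.5% and 3.17% in WT. Smurf2 on chromosome 11 had 66.7% and 40% 5mC in KO at 106818651 and 106900834, against 100% at both in WT, and no 5hmC site; the first of these also lies near Cep95.

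Of the corepressor genes, Tgif1 on chromosome 17 held 2 5hmC sites, both higher in KO cells, with 50% and 66.7% in KO at 70845338 and 70854528, against 0% in WT. The second lies 996 bp before the nearest RefSeq start. Skil, which encodes the SMAD corepressor SnoN, had no listed site.

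Outside the 35 genes, 94 further genes of the pathway were examined, covering other ligands, activators, receptors, antagonists, SMAD regulators and target genes. A 5mC site stood at 48 of them, in KO cells always higher in 13 genes, always lower in 19 and mixed in 16, and 63 of their 119 5mC sites (52.9%) were higher in KO cells, with a median difference of 19.7 points. A 5hmC site stood at 58, always higher in 20, always lower in 13 and mixed in 25; 119 of 237 5hmC sites (50.2%) were higher, with a median of 11.7 points. These shares of higher sites lay above the 40.3% and below the 64.4% of all listed sites. Over all protein-coding genes, 47.1% held a listed 5mC site and 53.7% a listed 5hmC site. Gene length was not taken into account here, and the directions per gene were not counted over all genes. Sites were unevenly spread over genes. Runx2 held 14 of the 63 higher 5mC sites and Bmp8a 11, and Cdkn1c held 18 of the 118 lower 5hmC sites and Bmp8a also 18. Bmp8a and Bmp8b are closely related genes of chromosome 4, and reads may be shared between them.

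By role, 5mC was higher at 21 of 26 sites of target genes, 14 of these 21 in Runx2, and at 17 of 24 sites of other ligands, 11 of these 17 in Bmp8a and 4 in Bmp8b. It was higher at 10 of 27 sites of SMAD partners or regulators, 6 of 15 of antagonists, 5 of 13 of other receptors and 4 of 14 of activators. For 5hmC, 17 of 20 sites of antagonists were higher, 6 of them in Bmper, 19 of 26 of activators, 29 of 55 of SMAD regulators, 30 of 68 of other ligands and 7 of 17 of other receptors. At target genes 17 of 51 were higher, and Cdkn1c held 18 of the 34 lower sites. The largest 5mC differences were at Gdf6, a BMP-like ligand gene, with 100% in KO and 15.8% in WT, Ski, a SMAD corepressor gene, with 0% in KO and 80% in WT, Fstl3, an activin antagonist gene, with 100% in KO and 23.1% in WT, and Eng, the endoglin co-receptor gene, with 100% in KO and 27.3% in WT. For 5hmC, Bmp3 had 62.5%, and Nedd4l and Gdf6 60% each, in KO, against 0% in WT. Only Runx2 and Nbl1 had a q under 0.05 in the authors' deposited table, both for 5hmC. That is 2 of 237 5hmC sites and 0 of 119 5mC sites, against 1.08% and 0.175% of all listed sites. Runx2, an osteoblast factor gene, had 0% in KO and 65.4% in WT (q = 8.83e-05 in the authors' deposited table). Nbl1, a BMP antagonist gene, had 0% in KO and 26.6% in WT (q = 0.0406, also in the authors' deposited table).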

How the data were processed

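Per the labels' protocols, LSK DNA with lambda control DNA was sonicated, ligated to methylated adapters, bisulfite-converted, amplified and sequenced. The sources used here name no aligner, caller, test or depth, and describe no oxidation step. The authors deposited, per CpG, 5mC and 5hmC levels as fractions in KO and WT with a p-value, a q-value and the difference, which equalled KO minus WT within 0.0001. Which libraries gave each level is not stated, and the labels title the bisulfite libraries 5mC and the oxidative ones 5hmC. The submitters' processing notes name GRCm39, but all 443 listed 5mC and 843 listed 5hmC positions in RefSeq GRCm38 promoter windows fell on a CG dinucleotide of GRCm38, so positions are given on GRCm38.

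Sites were joined to RefSeq genes with pandas 2.3.3 in Python 3.11.15, and intervals computed with SciPy 1.17.1. The join was tested on simulated data. No test of genotypes was run, since each group has 1 library. Levels are printed for every site of a gene with 3 or fewer sites per mark, and otherwise for the highest and lowest difference, shared positions, promoter sites and runs. The genes, lists and rules were chosen with earlier results of these data known. Alternatives were the flank, p, size of difference, levels at 0 or 100%, overlapping genes, the largest member, and, chosen after seeing the data, leaving out shared positions. For 9 genes without a promoter window the strand was not used.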

Additional observations from a re-analysis of the deposited data

How the results depend on the processing

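Of 72 values recomputed under other settings, 58 kept their size, that is within 1.5 times for counts and within the 95% interval for shares. With p under 0.001 in the authors' deposited table, 8 5mC sites at 7 genes and 19 5hmC sites at 12 genes remained, with 1 shared position and 7 and 27 other pathway genes. Without levels of exactly 0 or 100%, 51 5mC sites, 28 5hmC sites at 13 genes, 2 shared positions and 31 and 23 other pathway genes remained, and 50% of those 5hmC sites were higher in KO. A site at 0% in WT can only be higher in KO, and a site at 0% in KO can only be lower. Of the 139 5hmC sites, 68 (48.9%) were at 0% in WT and 42 (30.2%) at 0% in KO. Over all listed 5hmC sites these shares were 52.3% and 30.0%. Leaving them out therefore removes more higher than lower sites. Why so many levels were exactly 0% was not tested. Flanks of 0, 5000 and 10000 bp, the 25-point minimum, leaving out sites near other genes and leaving out the gene with most sites gave shares of 40.2 to 45.1% for 5mC and 57.8 to 63.9% for 5hmC, and leaving out shared positions, an alternative chosen after seeing the data, gave 49.1% and 57.0%. Gene positions of GRCm39 were not run. No paired analysis was possible because each group has 1 library, and no test of genotypes was run here. Unknown read depth limits levels of 0% and 100% most.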
